A study of Mus musculus with 48 samples.

Results

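The genes described here are the 37 protein-coding mouse genes whose symbols start with Psma, Psmb, Psmc or Psmd followed by a number, without the immunoproteasome genes Psmb8, Psmb9 and Psmb10, out of 51789 genes in the deposited table. The rule uses names only. By role it takes in 8 genes of the alpha rings, 8 genes of the beta rings, 6 ATPases and 11 other subunits of the regulatory cap, 3 assembly factors (Psmd5, Psmd9 and Psmd10) and Psmc3ip, which shares the prefix but encodes a meiotic recombination protein and no proteasome subunit.

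Levels were measured by 3′ mRNA sequencing in mouse macrophages that had been cultured for 4 h with AP-3-84 at 10 µM or with as much of its vehicle, DMSO. The labels give no description of AP-3-84. The 48 libraries form 16 groups of 3, that is, treated and vehicle groups of 8 populations. Ascites macrophages were F4/80+ cells, bead-sorted from peritoneal washes 45 days after injection of ID8 tumour cells, with the host genotype given as B6(Cg)-Tyrc-2J/J. Thio macrophages were F4/80+ cells, bead-sorted from wild-type C57BL/6 mice 4 days after 1 ml of 3% thioglycollate. The other 6 populations were macrophages grown from C57BL/6 bone marrow for 6 days in 10 ng/mL M-CSF, from wild-type (WT) or p53 knockout (KO) mice, either unpolarized (M0) or kept a further 24 h in 100 ng/mL LPS with 50 ng/mL IFN-γ (M1) or in 10 ng/mL IL-4 with 10 ng/mL IL-13 (M2). The genotype field calls all of these wild-type, while titles, descriptions and the design text separate WT from KO, and the groups follow the latter. The labels do not say whether replicates came from separate mice, so p-values measure only the spread between these libraries.

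The proteasome is the large protease that degrades proteins tagged with ubiquitin. Its core particle, 20S, is a stack of alpha rings, which gate the channel, around beta rings, in which Psmb5, Psmb6 and Psmb7 carry the active sites. A regulatory cap, 19S, binds ubiquitin, removes it and unfolds the substrate with a ring of ATPases (Psmc1 to Psmc6) that sits under a set of non-ATPase subunits (Psmd genes). Cells that lose proteasome activity raise the subunit genes together through the transcription factor NRF1 (Nfe2l1), which binds elements of the antioxidant response type in their promoters. In macrophages, interferon-γ exchanges the catalytic subunits for those of the immunoproteasome, Psmb8, Psmb9 and Psmb10, in cells that present antigen.

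Promoter windows are shown for 6 genes, namely the genes with a usable window among those called as changed by AP-3-84 in at least 2 populations, and the catalytic subunit Psmb6. Each is 120 bases read 5′ to 3′ on the gene's strand and ending just before the first annotated start of the gene (RefSeq windows, build GRCm38.p6). Capitals mark a match to TGACNNNGC, the core of the antioxidant response element, searched on both strands. The windows lie at chr14:54618023-54618142 (Psmb5, minus strand), chr11:70525237-70525356 (Psmb6, plus strand), chr2:61711574-61711693 (Psmd14, plus strand), chr11:80428495-80428614 (Psmd11, plus strand), chr12:100110034-100110153 (Psmc1, plus strand) and chr5:21785155-21785274 (Psmc2, plus strand).
Psmb5: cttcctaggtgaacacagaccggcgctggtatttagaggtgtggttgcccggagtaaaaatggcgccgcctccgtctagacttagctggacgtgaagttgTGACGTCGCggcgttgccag
Psmb6: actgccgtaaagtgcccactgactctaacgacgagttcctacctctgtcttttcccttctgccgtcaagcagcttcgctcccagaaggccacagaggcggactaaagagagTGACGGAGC
Psmd14: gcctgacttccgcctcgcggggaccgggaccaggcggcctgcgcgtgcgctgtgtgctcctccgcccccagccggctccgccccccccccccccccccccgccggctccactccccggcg
Psmd11: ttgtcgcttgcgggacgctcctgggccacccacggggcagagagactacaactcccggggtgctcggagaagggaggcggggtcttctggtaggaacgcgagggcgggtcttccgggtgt
Psmc1: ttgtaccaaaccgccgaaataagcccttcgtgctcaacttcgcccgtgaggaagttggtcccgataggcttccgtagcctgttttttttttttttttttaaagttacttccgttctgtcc
Psmc2: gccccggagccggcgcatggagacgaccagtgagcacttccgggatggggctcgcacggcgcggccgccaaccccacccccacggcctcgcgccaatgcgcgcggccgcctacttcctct

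The reference table held 32 windows of 300 bases for 30 of the 37 genes. A gene was counted if any of its windows held a match, while the shares of all windows are per window. TGACNNNGC occurred in the windows of 5 of these 30 genes (Psmb5, Psmb6, Psmc6, Psmd9 and Psmd12), or 16.7%, against 12.4% of all 32851 windows of the table. The match of Psmb5, TGACGTCGC, starts 47 bases before the RefSeq start site and that of Psmb6, TGACGGAGC, 9 bases before it. CCAAT, the box bound by NF-Y, occurred in the windows of 13 of the 30 genes, or 43.3%, against 37.4% of all windows. The heat shock element occurred in 0 of the 30 and in 0.603% of all windows. These shares of the proteasome genes lie near those of all windows, and a match is a run of letters, not a shown binding site.

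Total counts per library were 15532373 to 19417581 in the 12 peritoneal and 3081707 to 4645148 in the 36 bone marrow-derived libraries, which were fitted apart. The test covered 16955 and 11779 genes. Levels are given as CPM, counts scaled with TMM factors to a common library total. The p53 target Cdkn1a had 34.1 to 292 CPM in the KO and 555 to 1119 CPM in the WT libraries. Of the M1 markers, Nos2, Il12b and Cxcl9 stood at 1.51 to 5.96 CPM in WT_M1 vehicle libraries, and Il1b at 340 to 545 CPM. The same genes had 0 to 3.32 CPM and 8.97 to 88.2 CPM in WT_M0, and 1.01 to 64.3 CPM and 509 to 1406 CPM in KO_M1 vehicle libraries. The 4 M2 markers summed to 7030 to 10380 CPM in WT_M2 and 244 to 318 CPM in WT_M0 vehicle libraries. Summed macrophage markers (7 genes, none at 0 in either origin) reached 23750 to 34750 CPM in peritoneal and 5894 to 48710 CPM in bone marrow-derived libraries. Summed markers of epithelial cells (7 genes) were 210 to 271 CPM in ascites libraries and 2.55 to 4.66 CPM in thio libraries, and those of B cells and of T cells (4 genes each) at most 22.7 CPM and 1.27 CPM in any library. The KO_M0 vehicle libraries stood apart from all others of unpolarized cells, also in genes such as Marco, a scavenger receptor, and replicate 1 of the WT_M2 vehicle group stood apart from its replicates. Neutrophil markers (5 genes) also spread within other groups, from 319 to 3051 CPM in KO_M2 vehicle and from 694 to 3422 CPM in KO_M1 treated libraries. Values of the KO_M0, WT_M2 and KO_M2 vehicle libraries are given beside the results they touch.

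All 37 genes had counts in both origins. In the vehicle groups Psmd8, a lid subunit, had the highest mean of CPM in both origins, 399.7 CPM in peritoneal and 473 CPM in bone marrow-derived cells. The lowest were Psma8, the testis-specific alpha subunit, at 0.856 CPM in peritoneal cells, and Psmb11, the beta subunit of the thymus, at 0.41 CPM in bone marrow-derived cells. Reads of these libraries come from transcript 3′ ends, so CPM were not divided by length. In peritoneal libraries Psmb11 had 20.3 to 36.3 CPM, and Psmc3ip at no more than 9.96 CPM in any library. All 37 genes passed the filter on low counts in peritoneal cells, and 35 of 37 in bone marrow-derived cells, where Psma8 and Psmb11 did not.

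The summed level of the 37 genes was similar within most groups. It was 5969 ± 90.1 CPM (SD, n = 3) in ascites vehicle libraries and 4947 ± 43.2 CPM in thio vehicle libraries. With AP-3-84 it was 6510 ± 88.8 CPM and 5716 ± 211 CPM, and in both populations each treated library lay above each vehicle library. In bone marrow-derived cells the group means ran from 6480 to 7985 CPM, except for the KO_M0 vehicle group at 5006 ± 245 CPM. In that group the libraries had 4723, 5136 and 5158 CPM, below all 33 other bone marrow-derived libraries. In bulk RNA, fewer cells of a type and less RNA per cell cannot be told apart.

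**Figure D1:**
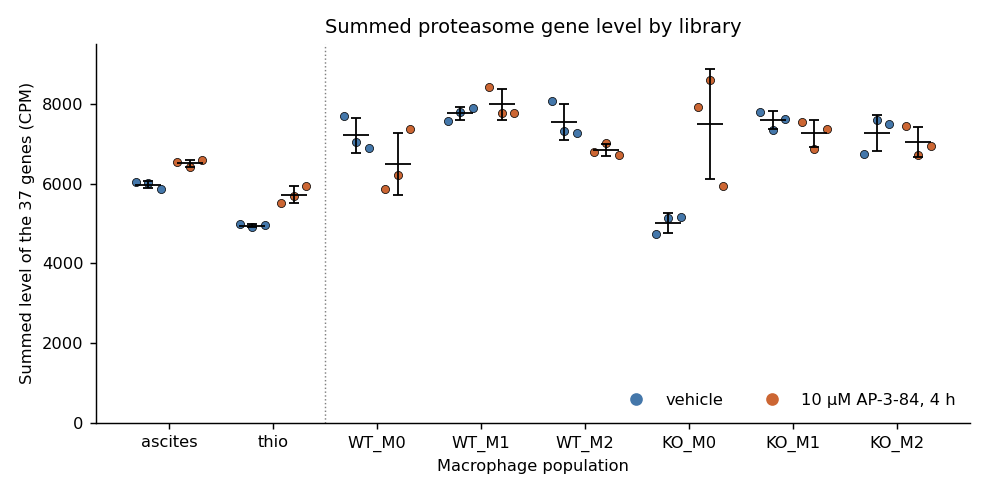
Summed level of the 37 genes in CPM (y axis, from 0) for each of the 8 populations (x axis), with 1 point per library, a horizontal line for the group mean and a bar for the SD (n = 3). Peritoneal and bone marrow-derived cells, left and right of the dotted line, were scaled apart. The KO_M0 vehicle libraries, at 4723 to 5158 CPM, are the lowest of the bone marrow-derived libraries, and treated ascites and thio libraries lie above their vehicle libraries.

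The genes varied together to different degrees. Over the 12 peritoneal libraries, Pearson's r of a gene's log2 level with the mean of the other members had a median of 0.84 (from -0.66 to 0.97), and 0.12 after group means were removed. Over the 36 bone marrow-derived libraries the median was 0.58 (from 0.09 to 0.91), and 0.49 after group means were removed. These values describe libraries that share scaling and depth, and most of the peritoneal co-variation lay between groups.

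With AP-3-84 most proteasome genes had small positive fold changes in both peritoneal populations, and the genes that passed the test were mostly cap subunits. Most of these calls depended on single libraries. Only Psmd11, Psmd7 and the core subunit Psmb5 in thio cells and Psmd1 in ascites cells kept theirs without any 1 library. In thio cells 10 of 37 members rose and 0 fell, against 4.32% of all genes called in either direction and 2.51% called higher. In ascites cells 3 of 37 rose and 0 fell, against 1.79% called in either direction and 1.69% called higher. The median log2 fold change of the members was 0.17 in thio cells (0.03 over all genes) and 0.12 in ascites cells (-0.005 over all genes). Fold changes were positive for 34 of 37 members in thio cells and for 32 of 37 in ascites cells, against 53.5% and 49.2% of all genes.

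The share of called genes was higher at higher levels. Among the 4787 peritoneal genes with an average log2 CPM of at least 5, 5.26% were called higher in thio cells and 3.17% in ascites cells. At that level stood 31 members, of which 10 and 3 were called higher.

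Among the lid subunits, Psmd3, a scaffold of the lid, stood at 79.6, 91.6 and 96.8 CPM in ascites vehicle libraries and at 137.5, 117.0 and 112.7 CPM with AP-3-84. In thio cells it stood at 63.7, 50.8 and 51.8 CPM and, with AP-3-84, at 70.6, 70.0 and 73.4 CPM. Every treated library lay above every vehicle library in both populations. The log2 fold change was 0.45 (SE 0.10, adjusted p = 0.0193, edgeR) in ascites and 0.37 (SE 0.10, adjusted p = 0.0488) in thio cells.

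Psmd1, a large subunit of the cap base, stood at 115, 122 and 128 CPM in ascites vehicle libraries and at 158, 156 and 155 CPM with AP-3-84. In thio cells the values were 193, 201 and 213 CPM and, with AP-3-84, 253, 248 and 225 CPM. The groups did not overlap in either population, and Psmd1 was, unlike most members, higher in thio than in ascites cells. The log2 fold change was 0.37 (SE 0.06, adjusted p = 0.00343, edgeR) in ascites and 0.26 (SE 0.06, adjusted p = 0.0286) in thio cells. Psmd1 overlaps other annotated genes on its strand, among them Gm21972, and its counts are to that extent uncertain.

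Psmd7, a lid subunit that pairs with the deubiquitinase Psmd14, stood at 180, 187 and 177 CPM in ascites vehicle libraries and at 221, 214 and 211 CPM with AP-3-84. In thio cells it stood at 146, 129.9 and 139.7 CPM and, with AP-3-84, at 181.0, 176.8 and 183 CPM. The treated libraries were again all higher. The log2 fold change was 0.25 (SE 0.06, adjusted p = 0.0417, edgeR) in ascites and 0.38 (SE 0.06, adjusted p = 0.001) in thio cells.

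Psmd14, which removes ubiquitin chains from substrates, stood at 59.4, 62.9 and 59.0 CPM in ascites vehicle libraries and at 66.7, 93.9 and 72.2 CPM with AP-3-84. In thio cells it stood at 54.5, 45.3 and 52.8 CPM and, with AP-3-84, at 77.0, 73.7 and 61.2 CPM. Its groups did not overlap in either population, but the treated libraries were spread widely. It was called in thio cells, with a log2 fold change of 0.47 (SE 0.12, adjusted p = 0.0343, edgeR), and not in ascites cells, with 0.36 (SE 0.12, adjusted p = 0.2 by the same test).

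Psmd11, a helical subunit of the lid, had the lowest adjusted p of the members in thio cells. It stood at 234, 237 and 235 CPM in vehicle libraries and at 333, 308 and 330.2 CPM with AP-3-84, a log2 fold change of 0.46 (SE 0.06, adjusted p = 0.000205, edgeR). In ascites cells its values were 293, 274 and 263 CPM and, with AP-3-84, 299, 309 and 331 CPM, a log2 fold change of 0.18 (SE 0.06, adjusted p = 0.213). The other lid and base subunits called in thio cells were Psmd8, at 0.27 (SE 0.05), and Psmd4, a ubiquitin receptor, at 0.27 (SE 0.07). Of the ATPases, Psmc2 rose by 0.30 (SE 0.07) and Psmc1 by 0.29 (SE 0.07) on the log2 scale, with edgeR adjusted p-values of 0.0171 and 0.0311.

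**Figure D2:**
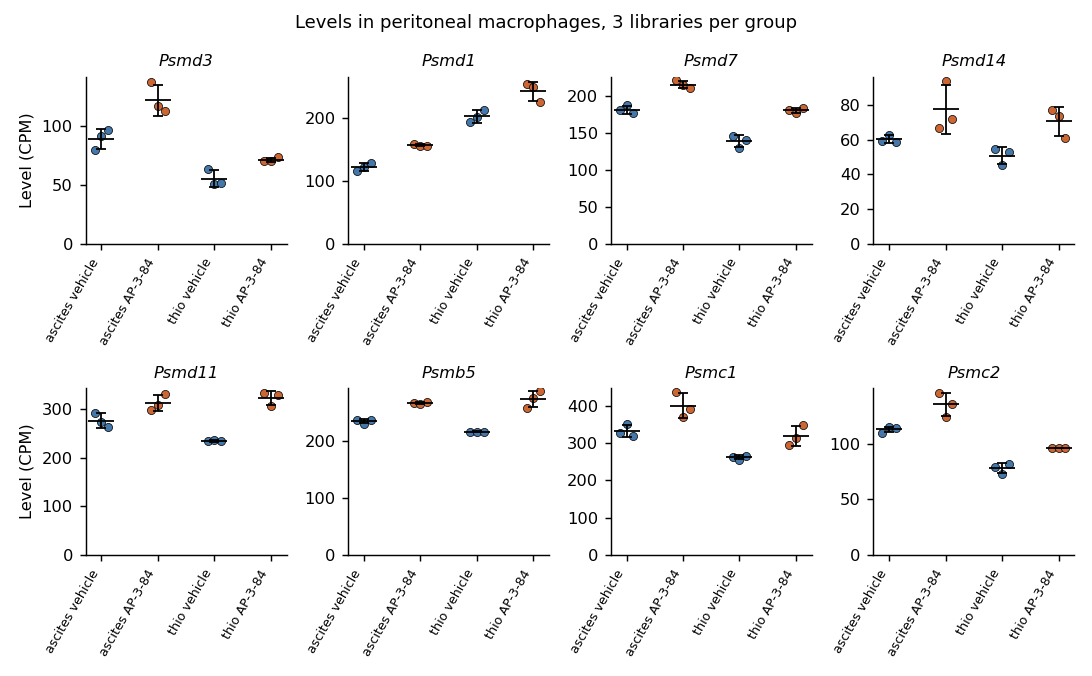
Levels of 8 proteasome genes in CPM (y axes, each from 0) in the 4 peritoneal groups (x axes), with 1 point per library, a horizontal line for the mean and a bar for the SD (n = 3). For each of these genes the 3 AP-3-84 libraries lie above the 3 vehicle libraries in thio and in ascites cells.

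Of the catalytic subunits, Psmb5, which carries the chymotrypsin-like site, rose in thio cells. Its vehicle libraries stood at 216, 214 and 215 CPM and its treated ones at 257, 275 and 287 CPM, a log2 fold change of 0.34 (SE 0.06, adjusted p = 0.00119, edgeR). In ascites cells it stood at 236, 229.7 and 236 CPM and, with AP-3-84, at 265, 264 and 267 CPM, so that the groups did not overlap, with a log2 fold change of 0.18 (SE 0.05, adjusted p = 0.136). Psmb6 (caspase-like site) had log2 fold changes of 0.12 in both populations and Psmb7 (trypsin-like site) of 0.17 in thio and 0.12 in ascites cells, and neither passed the test. No alpha ring gene was called in either population (0 of 8 in each), with median log2 fold changes of 0.13 in thio and 0.05 in ascites cells. The cap's non-ATPase subunits had medians of 0.27 and 0.22, with 7 of 11 and 3 of 11 called higher.

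The last bases of Psmb5 transcripts share 63.7% of their 30-base words with other annotated genes, among them the pseudogene Psmb5-ps. Such shares also exceeded 20% for 7 other members, including Psmc1 (43.0%) and Psmd11 (22.7%). Reads of these members could have been split between copies, and their levels are uncertain to that extent.

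The difference between the responses of the 2 peritoneal populations, tested as an interaction, passed the test for 0 of 37 members with edgeR (1 at an unadjusted p under 0.05), against 0.118% of all genes. DESeq2 also called 0. The peritoneal counts depended on single libraries. In thio cells the count of called members was 5, 3, 6, 4 and 6 without vehicle replicate 1, 2 or 3 or treated replicate 2 or 3, and in ascites cells 1 without vehicle replicate 1 or 2 or treated replicate 1. The call of Psmd3 was lost in ascites cells without vehicle replicate 1 or 2 or treated replicate 1 (0.34 to 0.47), and that of Psmd7 without any 1 of the 6 libraries (0.21 to 0.27). In thio cells the calls of Psmd14, Psmd3 and Psmd1 were each lost without any of 4 or 5 of the 6 libraries, and so were those of Psmc1, Psmc2 and Psmd4 (0.21 to 0.32, adjusted p from 0.0537 to 0.196). The call of Psmd8 was lost without vehicle replicate 2 (0.24, adjusted p = 0.0525), while Psmd11, Psmd7 and Psmb5 kept theirs without any 1 library.

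In 5 of the 6 bone marrow-derived populations AP-3-84 moved at most 1 member past the test. None of 35 members was called in WT_M0 (0.144% of all genes), WT_M1 (0.017%), KO_M1 (0%) or KO_M2 (0.0509%) cells with edgeR. At an unadjusted p under 0.05 there were 2, 1, 1 and 2 members in these populations, and DESeq2 called 0 in each. In WT_M0 cells only 4 of 35 members had a positive fold change, against 49% of all genes, with a median of -0.19 (-0.01 over all genes). The medians were -0.01 in WT_M1, -0.13 in WT_M2, -0.03 in KO_M1 and -0.08 in KO_M2 cells.

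The 10 genes called in thio cells gave values of both signs in WT_M0 cells, and none passed the test there. Psmd14 had the lowest, a log2 fold change of -0.41 (SE 0.29), and Psmd11 the highest, 0.20 (SE 0.13), while Psmb5 had -0.25 (SE 0.16). Psmd3 stood at 151, 132 and 117 CPM in vehicle and at 96.8, 124 and 130.1 CPM in treated libraries, a log2 fold change of -0.19 (SE 0.16). Psmd7 stood at 283, 243 and 243 CPM and, with AP-3-84, at 278, 275 and 258 CPM, a log2 fold change of 0.08 (SE 0.13). The groups overlapped for both. Hspa1a, an inducible HSP70 chaperone that is not among the members, stood at 1.12, 1.43 and 2.04 CPM in these vehicle libraries. In the treated ones it stood at 31.0, 14.9 and 20.96 CPM. In ascites libraries Hspa1a stood at 2.22 to 2.61 CPM and, with AP-3-84, at 713 to 760 CPM.

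In WT_M2 cells 1 of 35 members was called, and it fell, against 1.21% of all genes. This was Psmd10 (gankyrin), a chaperone for assembly of the cap's ATPase ring. It stood at 107, 85.7 and 74.7 CPM in vehicle libraries and at 41.1, 42.4 and 42.8 CPM with AP-3-84, with no overlap, a log2 fold change of -1.08 (SE 0.19, adjusted p = 0.00171, edgeR). In KO_M2 cells the values were 60.5, 49.6 and 48.1 CPM and, with AP-3-84, 46.8, 56.0 and 66.4 CPM, which overlap. The difference between these responses was 1.18 (SE 0.27, adjusted p = 0.0205, edgeR), and Psmd10 was the 1 of 35 members called in that interaction, against 1.77% of all genes. Without treated replicate 1 or 2 of WT_M2, vehicle replicate 2 or 3 of KO_M2 or treated replicate 3 of KO_M2, the interaction was 1.05 to 1.19 and missed the threshold (adjusted p from 0.0522 to 0.0792).

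Replicate 1 of the WT_M2 vehicle group had 1089 CPM of Marco, against 130.3 and 83.6 CPM in replicates 2 and 3, and its neutrophil markers (5 genes) summed to 3733 CPM, against 410.4 CPM in the lowest library of the group. The fall of Psmd10 in WT_M2 cells was called with each library of the groups left out in turn, this one included. Its log2 fold change ranged from -1.19 to -0.94 over all 13 alternatives. The KO_M2 vehicle libraries, which enter the interaction, also differed among themselves. Retnla stood at 5858, 455 and 405.5 CPM in them, and their neutrophil markers summed to 319 to 3051 CPM. The part of this spread in the Psmd10 interaction was not tested.

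**Figure D3:**
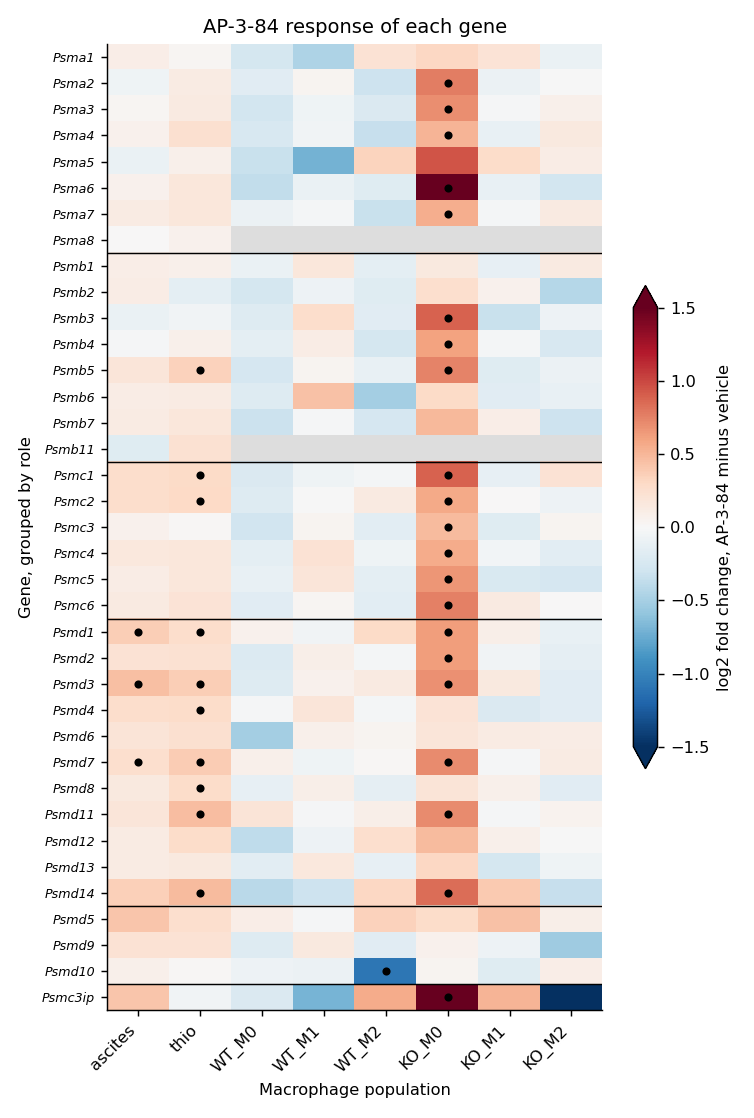
Log2 fold change of each of the 37 genes (rows, grouped by role) with AP-3-84 in each of the 8 populations (columns), on a colour scale that ends at -1.5 and 1.5. Black dots mark an adjusted p under 0.05, and grey fields mark genes too low to be tested. Called rises gather in the cap genes (Psmc and Psmd) of thio cells and across roles in KO_M0 cells, and Psmd10 in WT_M2 cells is the called fall.

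In KO_M0 cells 21 of 35 members rose with AP-3-84 and 0 fell, against 20.7% of all genes called in either direction and 12.1% called higher. All 35 fold changes were positive, against 47.8% of all genes, with a median of 0.56 (-0.03 over all genes). Among the 4525 genes of bone marrow-derived cells with an average log2 CPM of at least 5, 21.4% were called higher, and 20 of the 32 members at that level. The rise spread over the roles, with 5 of 7 alpha ring genes, 3 of 7 beta ring genes, 6 of 6 ATPases and 6 of 11 non-ATPase subunits called, while none of the 3 assembly factors was. The remaining call was Psmc3ip, which is no subunit, at 0.26, 1.23 and 0.27 CPM in vehicle and 2.27, 9.62 and 2.12 CPM in treated libraries, a log2 fold change of 2.99 (SE 0.70, adjusted p = 0.00276, edgeR). Without treated replicate 2 that value was 1.91 (adjusted p = 0.107).

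Psma6, an alpha ring subunit, had the largest fold change of the proteasome subunits in these cells. It stood at 87.3, 103 and 93.0 CPM in KO_M0 vehicle libraries and at 320.1, 344 and 149 CPM with AP-3-84. In WT_M0 cells the values were 189.8, 191 and 158 CPM and, with AP-3-84, 109, 142 and 167 CPM. Treated replicates 1 and 2 of KO_M0 lay far above all other libraries of unpolarized cells, and replicate 3 lay between the KO_M0 vehicle libraries and the WT_M0 ones. The log2 fold change in KO_M0 was 1.52 (SE 0.20, adjusted p = 2.99e-06, edgeR), and it was called under all 13 alternatives, from 1.31 to 1.82.

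Psmc1 stood at 233, 257 and 373 CPM in KO_M0 vehicle libraries and at 611, 627 and 361 CPM with AP-3-84, so that replicate 3 of the treated group overlapped the vehicle group. The log2 fold change was 0.89 (SE 0.21, adjusted p = 0.0025, edgeR). Psmb5 stood at 127, 147 and 163 CPM and, with AP-3-84, at 271, 273 and 187 CPM, a log2 fold change of 0.74 (SE 0.16, adjusted p = 0.00105 by the same test). For both genes the treated values of replicates 1 and 2 were close to each other and replicate 3 was lower.

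Of the 9 cap genes called in thio cells, 7 were also called in KO_M0 cells, and Psmd8 (0.20, SE 0.12) and Psmd4 (0.21, SE 0.21) were not. Most cap genes were called in KO_M0 cells, 6 of 6 ATPases and 6 of 11 non-ATPase subunits, so this overlap shows no link between the populations. Psmd1 stood at 198 ± 29.9 CPM (SD, n = 3) in vehicle and at 305 ± 8.20 CPM in treated libraries, a log2 fold change of 0.62 (SE 0.16). Psmd7 had 184, 176 and 218 CPM and, with AP-3-84, 346, 344 and 251 CPM, a log2 fold change of 0.70 (SE 0.14). Their groups did not overlap, and the edgeR adjusted p-values were 0.00448 and 0.000399. Psmd3 changed by 0.68 (SE 0.16, adjusted p = 0.00311, edgeR), and by 0.51 (adjusted p = 0.057) without treated replicate 2. Psmd14 changed by 0.83 (SE 0.30, adjusted p = 0.0495, edgeR), a call that was lost without vehicle replicate 2 or 3 or any 1 of the treated replicates (0.56 to 0.87, adjusted p from 0.0577 to 0.235).

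The catalytic genes Psmb6 and Psmb7 were not called, with log2 fold changes of 0.29 (SE 0.14) and 0.48 (SE 0.20). Both were called without treated replicate 3 of KO_M0, at 0.41 (edgeR adjusted p = 0.0373) and 0.59 (adjusted p = 0.0391), and Psmb7 also without vehicle replicate 1, at 0.66 (adjusted p = 0.0386). The count of called members was 13 without treated replicate 2 and 4 of 34 when only the 6 KO_M0 libraries were fitted. That last fit called 704 of 10341 genes in all, against 2440 of 11779 in the main fit.

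Other genes moved with these groups. Marco stood at 14.3 to 17.5 CPM in KO_M0 vehicle libraries and at 2896, 2067 and 473 CPM in the treated ones. It stood at 1171 to 2070 CPM in WT_M0 and at 2111 to 3136 CPM in KO_M1 vehicle libraries. Slc13a3 stood at 4.33 to 8.93 CPM in KO_M0 vehicle libraries and at 2233, 3259 and 737 CPM in the treated ones. Its values were 291 to 665 CPM in WT_M0 and 803.5 to 2491 CPM in KO_M1 vehicle libraries. Actb, the cytoskeletal actin gene, stood at 19300, 20620 and 22840 CPM in KO_M0 vehicle libraries and at 56600, 50660 and 28510 CPM in the treated ones. In KO_M1 vehicle libraries it stood at 16470 to 26950 CPM. Mrc1, the mannose receptor, went the other way, from 343 to 430 CPM in vehicle libraries to 113, 60.7 and 280.3 CPM. The KO_M1 vehicle libraries had 32.1 to 97.7 CPM of Mrc1. In each of these genes treated replicate 3 of KO_M0 lay between the KO_M0 vehicle group and the other treated libraries. The same held for the summed level of the proteasome genes (7923, 8591 and 5939 CPM). The 7 macrophage markers summed to 32250 to 38950 CPM in KO_M0 vehicle and 17930 to 38790 CPM in KO_M0 treated libraries. The 5 neutrophil markers summed to 521 to 642 CPM in vehicle and 268 to 424 CPM in treated libraries, with Ly6g at 0 in the vehicle group. The 4 eosinophil or mast cell markers summed to 3.93 to 4.31 and 0.79 to 3.28 CPM, with Mcpt4 at 0 in both and Cpa3 in the treated group. In neither list did the vehicle and treated ranges overlap. The 4 B cell markers, 3 of them at 0 in both groups, summed to 2.16 to 5.23 CPM in vehicle and 6.62 to 22.7 CPM in treated libraries, also without overlap. The part of these differences between the libraries in the proteasome result was not tested.

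**Figure D4:**
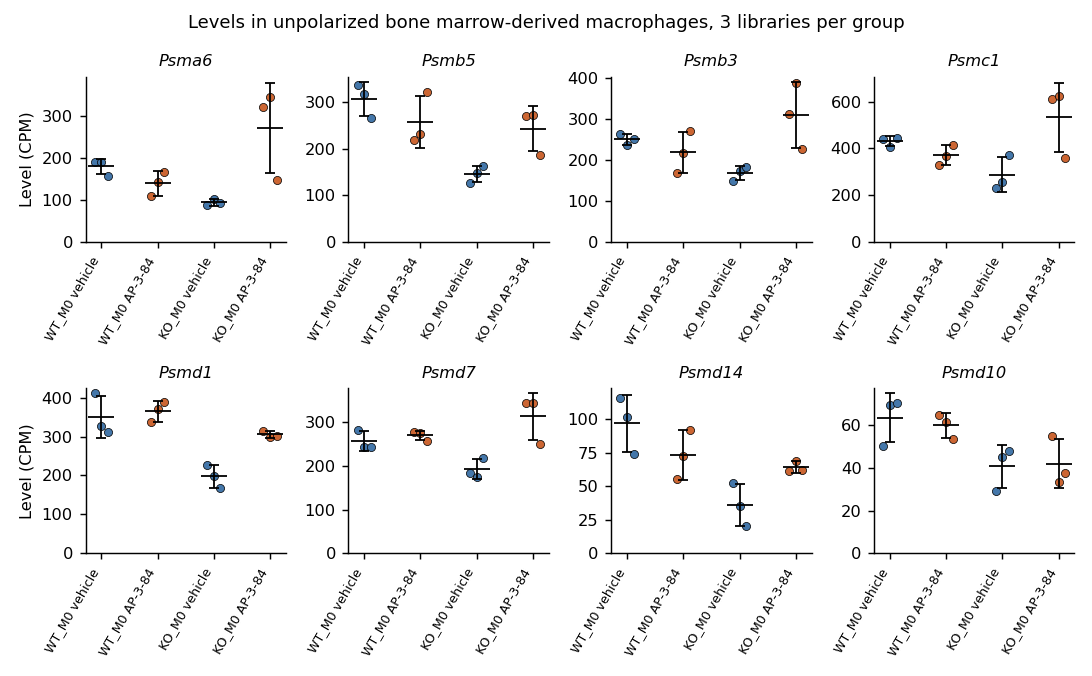
Levels of 8 proteasome genes in CPM (y axes, each from 0) in the 4 groups of unpolarized bone marrow-derived cells (x axes), with 1 point per library, a horizontal line for the mean and a bar for the SD (n = 3). For Psma6, Psmb5, Psmb3, Psmc1, Psmd1, Psmd7 and Psmd14 the KO_M0 vehicle group has the lowest mean of the 4 groups, and for most of these 1 treated KO_M0 library lies below the other 2. For Psmd10 the KO_M0 vehicle libraries lie below the WT_M0 vehicle libraries, and treatments overlap.

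Without compound, the KO_M0 group differed from the WT_M0 group in the opposite direction. Of 35 members 28 were lower and 0 higher in KO_M0, against 33.2% of all genes called in either direction and 16.8% called lower. The median log2 fold change was -0.57 (0.03 over all genes). Among genes with an average log2 CPM of at least 5, 24.6% were called lower, and 26 of 32 members. This comparison and the AP-3-84 response of KO_M0 share the KO_M0 vehicle libraries.

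The largest differences among subunits were those of Psma5, Psmd14 and Psmb5. Psma5, an alpha ring gene, stood at 70.0, 86.3 and 36.5 CPM in WT_M0 and at 34.9, 23.4 and 9.47 CPM in KO_M0 vehicle libraries, a log2 fold change of -1.51 (SE 0.39, adjusted p = 0.00429, edgeR). Psmd14 stood at 115, 101 and 73.9 CPM in WT_M0 and at 52.1, 35.1 and 20.6 CPM in KO_M0 libraries, a log2 fold change of -1.43 (SE 0.30, adjusted p = 0.0007 by edgeR). Psmb5 stood at 337, 318 and 266 CPM in WT_M0 and at 127, 147 and 163 CPM in KO_M0 libraries. Its log2 fold change was -1.07 (SE 0.16, adjusted p = 6.1e-06, edgeR), and no KO_M0 vehicle library reached the lowest WT_M0 one for any of these 3 genes. Psmc3ip was lower by 3.25 (log2 fold change -3.25, SE 0.69, edgeR adjusted p = 0.000601). Psmd4, a ubiquitin receptor of the cap, was the 1 member with a positive value, at 0.13 (SE 0.21).

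The response to AP-3-84 differed between KO_M0 and WT_M0 for 21 of 35 members by the test of the interaction, all more positive in KO_M0, against 17% of all genes called in either direction and 10% called higher. The median of this difference was 0.75 (-0.02 over all genes). The largest values among the subunits called were 1.89 for Psma6 (SE 0.28, adjusted p = 3.92e-05, edgeR) and 1.24 for Psmd14 (SE 0.42, adjusted p = 0.041), and Psmc3ip had 3.20 (SE 0.88, adjusted p = 0.0119). Psma5 had 1.28 (SE 0.54) and missed the threshold (edgeR adjusted p = 0.106). Of the 21 calls, 11 were lost when at least 1 of the 12 libraries was left out. Without treated replicate 2 of KO_M0 the count was 10 and the value of Psmc3ip was 2.12 (edgeR adjusted p = 0.123). The Psmd14 call was lost without any 1 of 8 of the 12 libraries, at values of 0.97 to 1.27. The same interaction in M1 cells was called for 0 of 35 members with edgeR (2 at an unadjusted p under 0.05), against 0.00849% of all genes, and DESeq2 called 0.

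In polarized cells the genotypes differed little. KO_M1 minus WT_M1 gave 1 of 35 members, Psmb6, at 0.54 (SE 0.14, adjusted p = 0.0142, edgeR), against 11.6% of all genes. Psmb6 stood at 248, 263 and 279 CPM in WT_M1 and at 436, 342 and 369 CPM in KO_M1 vehicle libraries, which do not overlap. It lost its call without vehicle replicate 1 or 2 of WT_M1 or replicate 1 of KO_M1 (0.43 to 0.53, adjusted p from 0.0531 to 0.0887), and 5 members were called without replicate 2 of KO_M1. KO_M2 minus WT_M2 gave Psmd10 alone, at -0.76 (SE 0.19, adjusted p = 0.0195, edgeR), against 3.56% of all genes. That call was lost without replicate 1 of WT_M2 or replicate 2 or 3 of KO_M2 (-0.72 to -0.62, adjusted p from 0.0937 to 0.12), and 2 members were called without replicate 2 of WT_M2.

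With TMM scaling, polarization without compound moved few subunit genes in WT cells. The M1 markers Nos2, Il12b and Cxcl9 stood at no more than 5.96 CPM in the WT_M1 vehicle libraries. In M1 against M0, 3 of 35 members were higher and 1 lower, against 15.5% of all genes called, 8.01% higher and 7.49% lower. Psma6 was higher by 0.82 (SE 0.20, adjusted p = 0.00382, edgeR) and kept its call under all 13 alternatives. Psmd3, at 0.49, and the alpha ring genes Psma2, at 0.43, and Psma4, at -0.37 (adjusted p from 0.0363 to 0.042 by edgeR), had calls that each depended on 5 or more of the 6 libraries. The count was 1 or 2 without any 1 library of the 2 groups.

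In M2 against M0 in WT cells 2 of 35 members were higher and 3 lower, against 23.4% of all genes called, 12.7% higher and 10.7% lower. Psmb6 stood at 327, 282 and 273 CPM in M0 and at 588, 543 and 587 CPM in M2 libraries, a log2 fold change of 0.96 (SE 0.14, adjusted p = 7.59e-06, edgeR). Psmd8 was higher by 0.78 (SE 0.12, adjusted p = 1.75e-05 by edgeR). Psma1 (-0.78), Psmc1 (-0.70) and the lid subunit Psmd12 (-0.53) were lower, with edgeR adjusted p-values of 0.0187, 0.0135 and 0.0258. The shares of members called in either direction were 11.4% in M1 and 14.3% in M2 against M0, below those of all genes. This held with TMM scaling only. With total-count scaling 8 and 15 of 35 members were called, against 2603 and 3060 of 11779 genes. In M2 the count was 3 without replicate 1 or 2 of WT_M0 or replicate 2 of WT_M2. Psma1 missed the threshold without replicate 1 or 2 of WT_M0 or replicate 3 of WT_M2, Psmc1 without replicate 2 of WT_M2, and Psmd12 without replicate 1 or 2 of either group, with adjusted p-values of 0.0508 to 0.129.

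In KO cells the polarized groups were set against the same KO_M0 vehicle libraries that stood apart. In KO_M1 25 of 35 members were higher and 0 lower, against 44.5% of all genes called and 22.8% called higher. In KO_M2 22 were higher and 0 lower, against 38% of all genes called and 20.1% called higher. The largest values in KO_M1 were 1.64 for Psma6 (SE 0.20) and 1.21 for Psmd10 (SE 0.19), and in KO_M2 1.66 for Psmd14 (SE 0.30) and 1.52 for Psma5 (SE 0.39), all with edgeR adjusted p-values of at most 0.00333. Psmc3ip was higher by 3.32 and 3.57.

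Differences between the AP-3-84 responses of polarized and unpolarized cells, averaged over genotypes, were called for few members. M1 minus M0 gave 0 of 35 with edgeR (9 at an unadjusted p under 0.05), against 0.492% of all genes, while DESeq2 called 1. M2 minus M0 gave 1 of 35, Psma6, at -0.80 (SE 0.20, adjusted p = 0.0258, edgeR), against 1.87% of all genes. In WT libraries alone the Psma6 difference was 0.19 (adjusted p = 0.835), of the other sign. Without treated replicate 3 of KO_M0, which lay nearer to the vehicle libraries, 7 members were called in M2 minus M0 and 3 in M1 minus M0. Of the other libraries, leaving out replicate 1 or 2 of the treated or 1 of the vehicle KO_M0 group, replicate 3 of treated WT_M0, 1 of vehicle WT_M2, or 3 of either KO_M2 group left 0, and leaving out treated replicate 1 of KO_M2 left 3.

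Between the vehicle groups of peritoneal cells, 25 of 37 members were higher in ascites and 4 in thio cells, against 33.7% of all genes called, 20.3% higher and 13.4% lower in ascites. The median log2 fold change was 0.36 (0.05 over all genes). The 2 groups differed in strain label, stimulus and time, which cannot be told apart. All alpha ring genes except Psma8 were higher in ascites, as were all 6 ATPases.

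The largest differences were in the assembly chaperone Psmd10, at 0.85 (SE 0.10, adjusted p = 2.25e-06, edgeR), the beta ring gene Psmb2, at 0.84 (SE 0.14, adjusted p = 9.98e-05), and Psmc3ip, at 1.73 (SE 0.48, adjusted p = 0.00888), which missed the threshold without ascites replicate 2 (1.41, adjusted p = 0.0627). Psmb7 stood at 83.2, 85.7 and 81.3 CPM in ascites and at 61.5, 54.3 and 57.8 CPM in thio libraries, without overlap. Psmb6 went the other way, at 202, 195 and 192 CPM in ascites and 237, 234 and 223 CPM in thio libraries, a log2 fold change of -0.24 (SE 0.06, adjusted p = 0.00347, edgeR). Psmb5 differed by 0.12 (SE 0.05, adjusted p = 0.11), so that the 3 catalytic genes gave values of different sign. Psmd8 stood at 317, 328 and 337 CPM in ascites and at 493, 455 and 468 CPM in thio libraries (log2 fold change -0.53, SE 0.05), and Psmd1 differed by -0.74 (SE 0.07). Psmd2, a base scaffold, was the remaining gene lower in ascites cells (log2 fold change -0.19, edgeR adjusted p = 0.0358), a call lost without ascites replicate 1 or 2 or any 1 of the thio replicates (-0.20 to -0.15, adjusted p from 0.068 to 0.175).

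The epithelial markers that set the ascites libraries apart (210 to 247 CPM summed in the vehicle libraries, none of 7 at 0 in the group) moved with this comparison, against 2.55 to 4.66 CPM in thio vehicle libraries. Their part in the result was not tested.

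**Figure D5:**
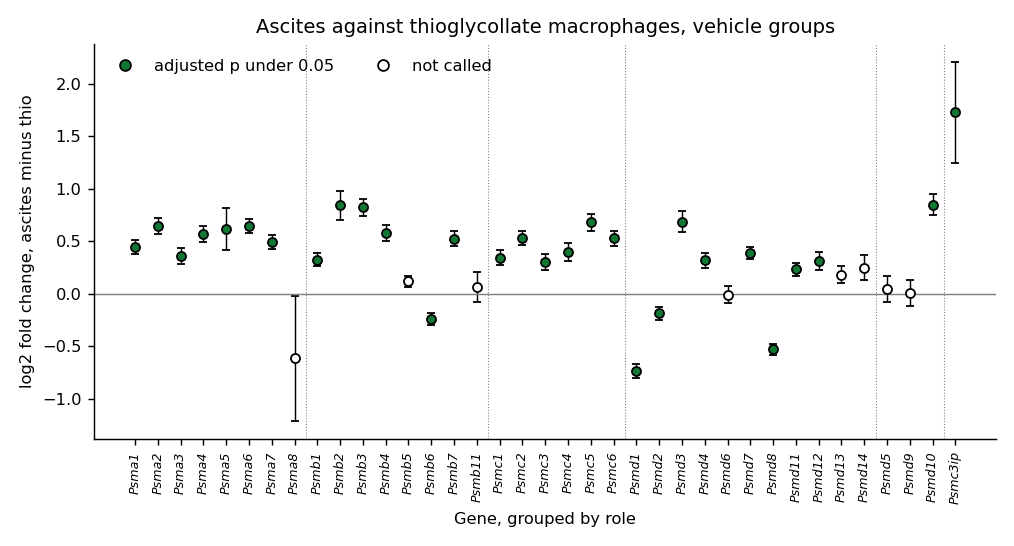
Log2 fold change of each of the 37 genes, ascites minus thio, in the vehicle groups (y axis), with genes grouped by role (x axis) and bars for the SE. Filled points passed an adjusted p of 0.05. Most genes lie above 0, while Psmd1, Psmd8, Psmb6 and Psmd2 are the called genes below it.

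Beyond the subunits, 32 genes of proteasome assembly, activation, shuttling and regulation were followed, all tested in both origins. With AP-3-84, 3 rose and 0 fell in ascites, 5 rose and 1 fell in thio and 13 rose and 0 fell in KO_M0 cells. Of all genes tested, 1.69%, 2.51% and 12.1% were called higher there, and 4.32% in either direction in thio cells. In WT_M2 cells 1 rose, against 1.21% of all genes called in either direction, and 0 were called in the other 4 populations. Zfand5, a proteasome-binding zinc finger protein, stood at 132.5, 127.5 and 128.5 CPM in ascites vehicle libraries and at 179.9, 176 and 172 CPM with AP-3-84 (log2 fold change 0.44, SE 0.06, edgeR adjusted p = 0.000125). Vcp, the p97 unfoldase that delivers ubiquitinated proteins, rose by 0.41 (SE 0.10) in ascites and by 0.41 (SE 0.10) in thio cells. Zfand2a, another zinc finger protein of the proteasome, rose by 0.50 (SE 0.08) in ascites and by 1.19 (SE 0.21) in WT_M2 cells. The shuttle factor Rad23b rose by 0.37 (SE 0.08) in thio cells, and Ddi2, the protease that activates NRF1, fell by 0.29 on the log2 scale there.

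Nfe2l1, which encodes NRF1, stood at 72.1, 77.3 and 52.7 CPM in KO_M0 vehicle libraries and at 145, 136.9 and 109 CPM with AP-3-84, a log2 fold change of 0.95 (SE 0.18, adjusted p = 0.00028, edgeR). In ascites and thio cells its log2 fold changes of 0.32 (adjusted p = 0.0696) and 0.22 (adjusted p = 0.204) missed the threshold. The activator subunit gene Psme2 rose by 1.21 (SE 0.18) in KO_M0 cells.

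The immunoproteasome genes encode the catalytic subunits that replace Psmb5, Psmb6 and Psmb7 in the immunoproteasome. Without compound Psmb8, Psmb9 and Psmb10 were higher in ascites than in thio cells by 1.83, 1.77 and 1.74 on the log2 scale, and in WT_M1 than in WT_M0 cells by 1.30, 1.19 and 0.92, all called. With AP-3-84 Psmb9 fell by 0.49 in thio cells (SE 0.10, adjusted p = 0.00828, edgeR), and Psmb10 fell by 0.91 in WT_M2 cells (SE 0.16, adjusted p = 0.00171). In KO_M0 cells Psmb8 rose by 0.93 (SE 0.19) and Psmb9 by 0.86 (SE 0.20), with edgeR adjusted p-values of 0.000875 and 0.00274, as 21 members did, while Psmb10 had 0.10 (SE 0.16). The difference from the WT_M0 response was 1.22 (SE 0.27) for Psmb8 and 1.19 (SE 0.29) for Psmb9, both called.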

How the data were processed

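QuantSeq FWD 3′ libraries were made from 100 ng of RNA and read as single reads of 75 bases, per the labels' protocols. The authors deposited 1 table of whole-number counts per gene. The submitters' processing notes name RSEM, Bowtie2 and DESeq2, so counts may be rounded estimates. The sources used here do not give the genome build or annotation. Of 51789 gene IDs, 51596 were found in GENCODE M21, which gave symbols.

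Counts were filtered (filterByExpr by group), scaled by TMM and tested in R 4.3.3 with edgeR 4.0.16 (quasi-likelihood, robust, 1 mean per group, no block) in 22 comparisons. Adjusted p-values (Benjamini-Hochberg, two-sided, threshold 0.05) cover all genes of a comparison. The SE is the absolute log2 fold change divided by the square root of F. The script was tested on simulated data. Alternatives were median-ratio size factors, total counts, no filter, DESeq2 1.42.0, other sets of libraries, a replicate block and leaving out each library.

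The members and gene lists were chosen with earlier results of these data known. Named were up to 3 called members with the largest changes in each direction per comparison, the catalytic genes, the 4 members called in most AP-3-84 comparisons, those with the highest and lowest levels, and up to 3 called pathway genes. 1 pathway gene that this rule would name is not reported here. Other genes were chosen after their values were seen.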

Additional observations from a re-analysis of the deposited data

Results flagged for a closer look

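These values are differences between the AP-3-84 responses of 2 groups that passed the test of the interaction in edgeR (log2 scale, n = 3 libraries in each of the 4 groups). Between KO_M0 and WT_M0 cells the response was more positive in KO_M0 for 21 genes, against 17% of all genes called. In the alpha ring the difference was 0.94 for Psma2, 0.97 for Psma3, 0.75 for Psma4, 1.89 for Psma6 and 0.64 for Psma7. In the beta ring it was 1.08 for Psmb3, 0.75 for Psmb4, 0.99 for Psmb5 and 0.81 for Psmb7. Among the ATPases it was 1.11 for Psmc1, 0.76 for Psmc2, 0.76 for Psmc3, 0.71 for Psmc4 and 0.93 for Psmc6. Among the other cap subunits it was 0.83 for Psmd2, 0.87 for Psmd3, 0.70 for Psmd6, 0.63 for Psmd7, 0.86 for Psmd12 and 1.24 for Psmd14. For Psmc3ip it was 3.20.

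Adjusted p-values of these edgeR tests ran from 3.92e-05 (Psma6) to 0.0456 (Psmb7). All of these differences rest on the KO_M0 vehicle libraries, which stood apart from the other libraries of unpolarized cells in Marco, at 14.3 to 17.5 CPM. They also rest on the treated KO_M0 libraries. Replicates 1 and 2 of these had 56600 and 50660 CPM of Actb, above all other bone marrow-derived libraries. The part of that in the differences was not tested.

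In M2 cells the response of Psmd10 differed between KO and WT by 1.18 (edgeR adjusted p = 0.0205). Between M2 and M0 cells, averaged over genotypes, the response of Psma6 differed by -0.80 (edgeR adjusted p = 0.0258), with 0.19 in wild-type libraries alone.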

How the results depend on the processing

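Counts of called members (edgeR unless named) moved beyond 1.5 times as follows, and the cause was not tested. With only the libraries of the groups compared, the counts were 1 (ascites AP-3-84), 4 (KO_M0 AP-3-84), 3 (KO_M1 minus WT_M1), 0 (KO_M2 minus WT_M2), 7 (WT_M1 minus WT_M0), 0 (response of KO_M2 minus WT_M2) and 0 (response of M2 minus M0). For the AP-3-84 comparisons these fits called 203 of 15870 and 704 of 10341 genes in all. For the vehicle comparisons they called, in that order, 1635 of 10188, 7 of 10207 and 2564 of 10231 genes. For the responses they called 35 of 10707 and 64 of 11446 genes. With all 48 libraries in one fit the member counts were 0 (ascites), 0 (thio), 2 (WT_M2), 17 (ascites minus thio), 2 (KO_M1 minus WT_M1), 2 (KO_M2 minus WT_M2), 2 (response of M1 minus M0) and 4 (response of M2 minus M0). Of 13815 genes, that fit called 112, 52, 274, 3252, 2027, 794, 204 and 438, in the same order. Without the filter the member counts were 5 (ascites), 3 (KO_M1 minus WT_M1), 4 (KO_M2 minus WT_M2), 1 (WT_M1 minus WT_M0), 1 (response of M1 minus M0) and 2 (response of M2 minus M0). In ascites cells 519 of 31120 genes were called without it. In the others, 1768, 959, 1931, 528 and 765 of 22768 were. DESeq2 gave member counts of 2 (WT_M2), 2 (KO_M1 minus WT_M1), 2 (KO_M2 minus WT_M2), 1 (response of M1 minus M0) and 3 (response of M2 minus M0). Over all genes it called 269 of 11087, 1656 of 11772, 699 of 10176, 163 of 11772 and 409 of 11543. Median-ratio size factors gave 4 members in thio cells, against 663 of 16955 genes. Total-count scaling gave 6 (KO_M1 minus WT_M1), 2 (KO_M2 minus WT_M2), 8 (WT_M1 minus WT_M0, 1 higher and 7 lower) and 15 (WT_M2 minus WT_M0, 2 higher and 13 lower). In these 4 comparisons it called 2093, 640, 2603 and 3060 of 11779 genes. It moved their medians of all genes to 0.27, 0.19, -0.30 and -0.20. Wild-type libraries alone, an alternative chosen after seeing the data, gave 0 in the response of M2 minus M0 and turned Psma6 there to 0.19.

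With the replicate number as a block the counts were 0 (ascites), 4 (thio), 2 (KO_M1 minus WT_M1), 2 (KO_M2 minus WT_M2), 0 (response of KO_M2 minus WT_M2) and 0 (response of M2 minus M0), and 19 in KO_M0. In ascites and thio cells 174 and 314 of 16955 genes were called with the block. In the others, in that order, 1351, 397, 80, 103 and 2105 of 11779 were. Whether the numbers pair the libraries is not known. Same-numbered deviations from the group means correlated at -0.37 to 0.37, above 0.1 in 4 of 24 pairs, and 6 libraries correlated best with their own number. With 3 libraries per group such values cannot exclude pairing.

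Leaving out 1 library gave 1 to 3 called members in ascites, 3 to 8 in thio and 13 to 24 in KO_M0 cells. It gave 0 to 5 in KO_M1 minus WT_M1, 0 to 2 in KO_M2 minus WT_M2, 1 to 2 in WT_M1 minus WT_M0 and 3 to 6 in WT_M2 minus WT_M0. For responses it gave 10 to 24 in KO_M0 minus WT_M0, 0 to 1 in KO_M2 minus WT_M2, 0 to 3 in M1 minus M0 and 0 to 7 in M2 minus M0. Over the 15 comparisons with called members there were 173 calls, and 172 kept the direction of their log2 fold change under every alternative run, the exception being Psma6 in the response of M2 minus M0. Without at least 1 library 63 of these calls were lost. The alternatives were fitted over all genes that passed their filters, but values of single genes that are not members were not kept from them. Counts over all genes without 1 library are not given here. Bone marrow-derived libraries, with 3081707 to 4645148 counts, limit precision for low members such as Psmc3ip.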
